A study of Homo sapiens with 6 samples.

Results

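The protein disulfide isomerases and the calnexin cycle were examined in 22Rv1 prostate cancer cells through 10 genes, PDIA3, PDIA4, PDIA5, PDIA6, P4HB, ERP44, TXNDC5, CALR, CANX and UGGT1, among the 29804 gene symbols of the count table. Members were chosen by protein family and read from the table by symbol, with no threshold. The list was selected on a gene family whose differences between the 3 groups were already known from the same libraries, so the differences of its members are given as a description and support nothing further. WT cells (n = 2) were untreated cells harvested at week 0, and AM cells (n = 2) were age matched, kept in culture for 6 weeks without drug. 6WP cells (n = 2) were cultured for the same 6 weeks and received 1 µg/ml of phleomycin, a radiomimetic that breaks DNA, on each week day. All 6 libraries come from 1 established human cell line of prostate carcinoma, with the genotype given as WT throughout, and the 6WP libraries hold the cells present after treatment. The labels call replicates biological without naming separate cultures, and p-values measure only the spread between these samples.

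Secreted and membrane proteins fold in the endoplasmic reticulum (ER). Protein disulfide isomerases (PDIs) carry thioredoxin-like domains and form, break or rearrange disulfide bonds in these clients. In the calnexin cycle, the lectins calnexin (CANX) and calreticulin (CALR) hold glycoproteins that carry a trimmed sugar, PDIA3 works with them on disulfide bonds, and UGGT1 puts a glucose back on clients that are not yet folded. Many of these genes belong to the transcriptional program of the unfolded protein response, in which the factor ATF6 reads the ER stress response element (ERSE) in promoters.

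Total counts ranged from 21222201 to 35311945 per library, so a floor of 3 counts equalled 0.0850 to 0.141 CPM (counts scaled to a common library size). These floors cover counting error only. CPM were scaled with TMM factors, which correct for composition, and tests were made on 14672 genes with edgeR's quasi-likelihood test, fitted to all 6 libraries and adjusted by the Benjamini-Hochberg method over all of them. A gene was called where its adjusted p-value was under 0.05. Pairs of replicates differed by more than sampling noise in each group, with a chi-square per degree of freedom of 5.67 (WT), 9.14 (AM) and 63.9 (6WP). The prostate label held in the counts, with HOXB13, KRT8, KRT18, EPCAM, KLK2 and KLK3 at group means of at least 38.8 CPM. Of 7 markers of other cell types, PTPRC and CDH5 had 0 counts in every library, and the highest group mean was 3.54 CPM, for CD68.

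Promoters of 9 members were found in the RefSeq promoter table (GRCh38.p14), which gives 250 bases before and 50 after each annotated start. The table held none for PDIA3. The ERSE, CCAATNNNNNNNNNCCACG on either strand, was present in a window of CALR, CANX and PDIA6, or 3 of 9 members. Over all 27303 genes of the table it was present in 0.0916%. Its parts alone are common, with CCAAT in 39.7% and CCACG in 42.1% of genes. A window of each gene with a match, and the first of 2 windows of PDIA4, the member with the largest differences between groups, are shown 5′ to 3′ on the strand of the gene. Capitals mark the CCAAT and CCACG parts of the ERSE, which read CGTGG and ATTGG in CALR, where the match lies on the opposite strand. In PDIA4, neither of whose windows held an exact ERSE, capitals mark the 3 CCAAT boxes, of which 1 is reversed.
CALR, chr19:12938359-12938658, plus strand: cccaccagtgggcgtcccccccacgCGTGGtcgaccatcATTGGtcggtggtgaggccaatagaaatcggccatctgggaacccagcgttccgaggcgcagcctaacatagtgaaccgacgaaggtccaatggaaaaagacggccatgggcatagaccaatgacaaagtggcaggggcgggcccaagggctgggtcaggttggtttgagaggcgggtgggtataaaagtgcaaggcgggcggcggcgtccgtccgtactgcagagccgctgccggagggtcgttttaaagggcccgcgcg
CANX, chr5:179698679-179698978, plus strand: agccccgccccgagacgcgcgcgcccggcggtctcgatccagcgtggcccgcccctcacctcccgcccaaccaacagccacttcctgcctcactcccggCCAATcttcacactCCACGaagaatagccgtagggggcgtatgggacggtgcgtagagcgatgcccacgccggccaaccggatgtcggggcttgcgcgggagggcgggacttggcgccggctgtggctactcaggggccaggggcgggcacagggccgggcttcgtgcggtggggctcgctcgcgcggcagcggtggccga
PDIA6, chr2:10812736-10813035, minus strand: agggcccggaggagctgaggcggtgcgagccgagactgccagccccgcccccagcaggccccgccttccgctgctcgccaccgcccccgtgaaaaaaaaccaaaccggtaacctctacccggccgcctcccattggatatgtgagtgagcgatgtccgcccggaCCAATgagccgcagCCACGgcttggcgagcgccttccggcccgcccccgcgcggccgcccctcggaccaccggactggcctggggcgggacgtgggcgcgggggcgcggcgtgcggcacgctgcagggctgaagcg
PDIA4, chr7:149028441-149028740, minus strand: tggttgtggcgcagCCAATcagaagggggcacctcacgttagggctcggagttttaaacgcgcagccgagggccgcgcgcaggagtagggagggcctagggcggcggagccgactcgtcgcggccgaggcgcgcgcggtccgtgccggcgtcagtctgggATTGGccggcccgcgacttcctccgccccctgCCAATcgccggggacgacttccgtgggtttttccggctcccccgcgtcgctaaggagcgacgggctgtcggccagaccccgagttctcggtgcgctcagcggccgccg

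In the windows shown, the ERSE began at position -225 in CALR, -151 in CANX and -86 in PDIA6, counted from the annotated start. The position depends on that start, since CANX has 4 windows and the same match lies at -9 and -189 in 2 of the others. The related ERSE-II, ATTGGNCCACG, was in no member window and in 0.0696% of all genes. TGACGTG, the core of the element read by XBP1 and ATF6, was found in a window of TXNDC5 only, against 2.40% of all genes. TGATGNAA, a core of elements bound by ATF4, was in 0 of 9 members and in 4.46% of all genes. Both strands were searched, and CCAAT and CCACG matches include those within an ERSE. A match describes the letters in a window and is not a measured binding site.

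The 10 genes together made up 0.706% and 0.697% of all WT counts, 1.06% and 1.01% of AM counts and 0.437% and 0.406% of 6WP counts, by library. The share was therefore highest after 6 weeks of culture without drug and lowest after 6 weeks with phleomycin, in raw counts and before any scaling. In bulk RNA, fewer cells with a high level and less RNA per cell cannot be told apart. The same order, AM above WT above 6WP, was seen in the group means of each of the 9 tested members. The members were listed with these differences known, and the share of all genes in this order was not counted.

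**Figure D1:**
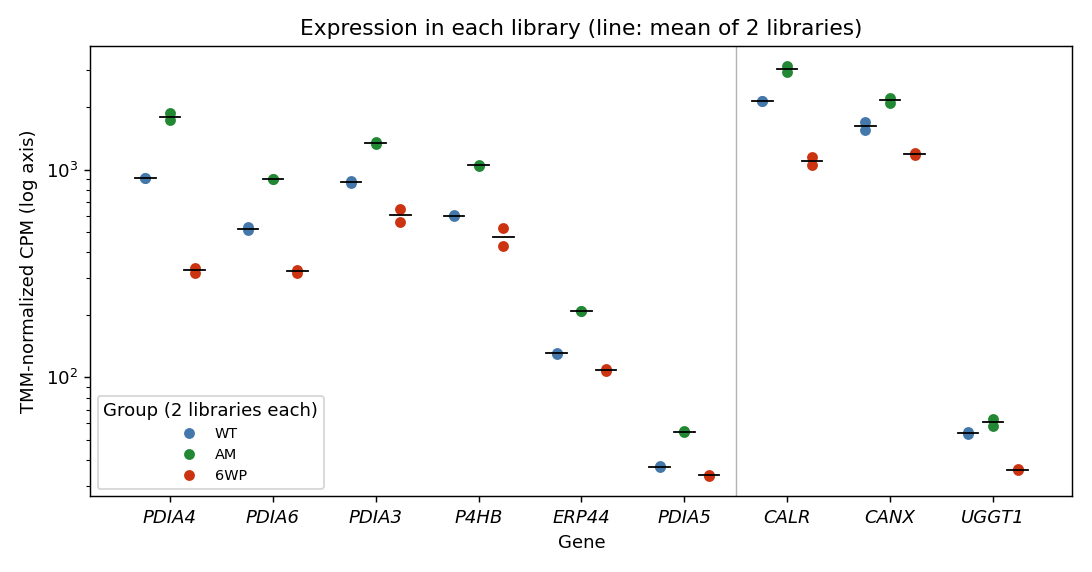
TMM-normalized CPM (log axis) of the 9 tested members in each library of WT, AM and 6WP cells, with PDIs to the left of the grey line and calnexin cycle genes to the right. Points are libraries and black lines the mean of 2 libraries. The AM points lie above the WT and 6WP points, and for UGGT1 the AM and WT points lie close together. The members were listed with these differences known, so this is a description only.

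Of the PDIs, PDIA4 moved most. It encodes a large PDI of the ER lumen with 3 active thioredoxin-like domains, and sits on chromosome 7 (GRCh38, minus strand) from 149003062 to 149028662, where no exon of another annotated gene overlaps its exons. PDIA4 had 911 and 912 CPM (WT), 1732 and 1864 CPM (AM) and 338 and 319 CPM (6WP) in its replicate libraries. The groups did not overlap. Its level was 1.97-fold higher in AM than in WT cells (log2 fold change 0.98, standard error 0.11), 2.78-fold lower in 6WP than in WT cells (-1.47, standard error 0.11), and 5.48-fold lower than in AM cells (-2.45, standard error 0.11). Ranked by p-value among all tested genes, PDIA4 was at rank 2 in both comparisons of 6WP cells. The rank is a description only, since the gene was listed with these differences known.

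PDIA6, on chromosome 2 from 10783391 to 10837977, encodes a PDI that is also known to act on the stress sensor IRE1. It had 528 and 510 CPM (WT), 897 and 897 CPM (AM) and 318 and 329 CPM (6WP) in its replicate libraries. All 3 groups were apart, with replicates closer to each other than to any library of another group. The log2 fold change was 0.79 (standard error 0.10) in AM against WT cells, -0.68 (standard error 0.10) for 6WP against WT, and -1.47 (standard error 0.10) for 6WP against AM cells. Exons of ATP6V1C2 on the opposite strand cover 45.3% of its canonical transcript, so its counts depend on the strand setting, which is not given in the sources used here. Opposite-strand exons also cover 21.7% of the canonical transcripts of PDIA3 and of P4HB and 14.2% of that of CALR, and none of those of PDIA4, PDIA5, ERP44, CANX and UGGT1.

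PDIA3, also called ERp57, is the PDI bound by calnexin and calreticulin and lies on chromosome 15 from 43746394 to 43773279. It had 877 and 857 CPM (WT), 1351 and 1330 CPM (AM) and 558 and 649 CPM (6WP) in its replicate libraries. The 6WP replicates were farther apart than those of the other groups, but both stayed below the WT libraries. The log2 fold changes were 0.63 (standard error 0.12) for AM against WT, -0.52 (standard error 0.12) for 6WP against WT and -1.15 (standard error 0.12) for 6WP against AM cells. The table lists its pseudogene PDIA3P1 with 92 to 133 counts, against 15445 to 45204 for PDIA3, and reads could have been split between them.

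P4HB encodes the founding member of the family, which is also a subunit of collagen prolyl hydroxylase and of the microsomal triglyceride transfer complex. It lies on chromosome 17 from 81843159 to 81860856. P4HB had 602 and 600 CPM (WT), 1035 and 1057 CPM (AM) and 521 and 431 CPM (6WP) in its replicate libraries. The distance between the 6WP replicates was larger than that from the higher of them to the WT libraries. The log2 fold change of AM against WT cells was 0.80 (standard error 0.12), similar in size to that of PDIA6, while that of 6WP against WT cells was -0.34 (standard error 0.12). Against AM cells, 6WP cells had 2.20-fold less P4HB (-1.14, standard error 0.12).

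ERP44, on chromosome 9 from 99979185 to 100099052, retains unassembled clients and ER oxidases by cycling between the early secretory compartments. It had 129 and 131 CPM (WT), 209 and 208 CPM (AM) and 110 and 107 CPM (6WP) in its replicate libraries. PDIA5, on chromosome 3 from 123067025 to 123225227, encodes a less studied PDI that has been linked to ATF6 activation. It had 37.0 and 37.3 CPM (WT), 55.3 and 54.3 CPM (AM) and 33.6 and 33.8 CPM (6WP) in its replicate libraries. For both genes AM cells stood well apart, whereas the WT and 6WP libraries were close, with log2 fold changes of 6WP against WT cells of -0.27 (standard error 0.10) for ERP44 and -0.14 (standard error 0.11) for PDIA5. Against AM cells the values were -0.94 (standard error 0.10) for ERP44 and -0.70 (standard error 0.11) for PDIA5.

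TXNDC5, another PDI with 3 thioredoxin-like domains, could not be compared. The table lists 3 and 4 counts (WT), 2 and 2 counts (AM) and 1 and 1 counts (6WP), at or near the floor of 3 counts, and the gene did not pass the expression filter. TXNDC5 lies on chromosome 6 from 7881517 to 7910788. The annotated read-through gene BLOC1S5-TXNDC5 shares 90.5% of the bases of its canonical transcript on the same strand, and this gene and BLOC1S5 are listed with 0 counts in every library. How reads that fall on 2 genes were counted is not given in the sources used here, and the part of the overlap in these low counts was not tested.

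Among the calnexin cycle genes, CALR differed most. Calreticulin is the soluble lectin of the cycle and a calcium store, and its gene lies on chromosome 19 from 12938578 to 12944489. CALR had 2134 and 2136 CPM (WT), 3135 and 2945 CPM (AM) and 1150 and 1051 CPM (6WP) in its replicate libraries. It was 1.94-fold lower in 6WP than in WT cells (-0.96, standard error 0.12) and 2.76-fold lower than in AM cells (-1.47, standard error 0.12). The rise from WT to AM cells was smaller, at 0.51 (standard error 0.11).

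CANX, the membrane-bound lectin, lies on chromosome 5 from 179678628 to 179731641. It had 1689 and 1553 CPM (WT), 2201 and 2098 CPM (AM) and 1207 and 1174 CPM (6WP) in its replicate libraries. The groups were apart, by less than for CALR. The log2 fold change was 0.41 (standard error 0.11) in AM against WT, -0.44 (standard error 0.11) in 6WP against WT and -0.85 (standard error 0.11) in 6WP against AM cells.

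UGGT1, the folding sensor of the cycle, lies on chromosome 2 from 128091200 to 128195677. It had 54.9 and 53.6 CPM (WT), 63.3 and 58.5 CPM (AM) and 36.2 and 35.6 CPM (6WP) in its replicate libraries. Here the AM and WT libraries lay close together (log2 fold change 0.17, standard error 0.11), and 6WP cells stood apart. UGGT1 was 1.51-fold lower in 6WP than in WT cells (-0.59, standard error 0.11) and 1.69-fold lower than in AM cells (-0.76, standard error 0.11).

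**Figure D2:**
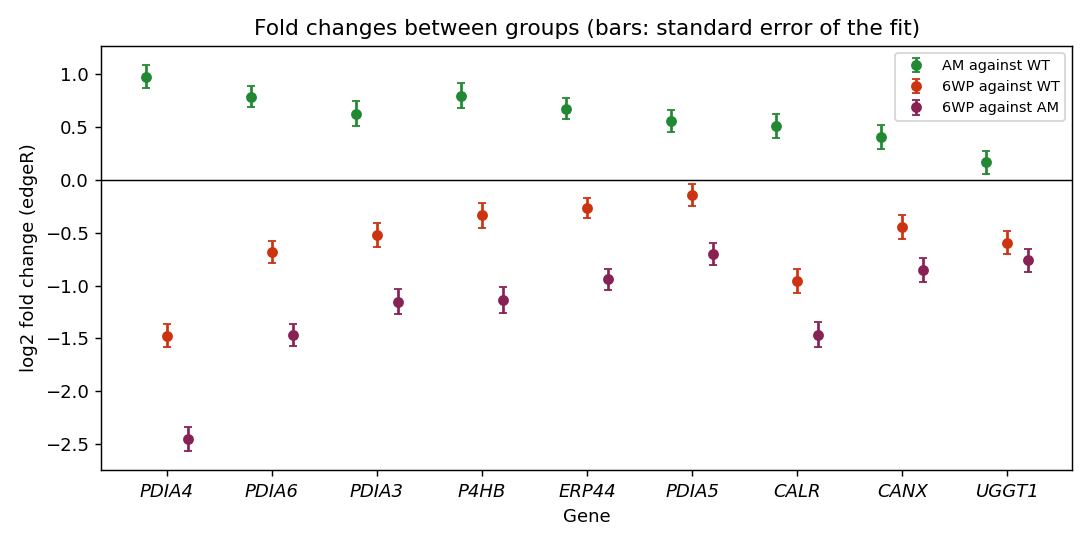
Log2 fold changes of the 9 tested members from edgeR for AM against WT, 6WP against WT and 6WP against AM cells, with bars of 1 standard error. Values of AM against WT lie above 0 and both comparisons of 6WP cells below 0 in every member, from -0.14 for PDIA5 to -2.45 for PDIA4.

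Over the 9 tested members the median log2 fold change was 0.63 in AM against WT, -0.52 in 6WP against WT and -1.14 in 6WP against AM cells. Over all genes tested the medians were -0.0023, 0.01 and 0.05. In 6WP against WT cells 4 members were called lower (PDIA4, PDIA6, CALR and UGGT1) and 0 higher, where 1.37% of all genes were called lower and 1.63% higher. At an unadjusted p-value under 0.05, 8 members were lower and 0 higher, beside 11% of all genes lower and 11.3% higher. With the Wald test of DESeq2 6 members were called lower and 0 higher, beside 4.23% of all genes lower and 3.83% higher. In 6WP against AM cells 9 of 9 were called lower, beside 9.68% of all genes lower and 11.7% higher. In AM against WT cells 8 of 9 were called higher, all but UGGT1, beside 7.74% of all genes higher and 9.93% lower. Because the members were listed with these differences known, nothing is read from these counts, and the comparisons share libraries.

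Calls against WT cells rested on few libraries. Without WT replicate 1 or 2, 0 of all tested genes were called by edgeR in 6WP against WT cells, and 5 and 6 members were lower at an unadjusted p-value under 0.05, beside 5% and 6% of all genes. Without AM replicate 1 or 2, 2 members were called lower in this comparison, where 0.252% of all genes were. Without 6WP replicate 1 or 2, 8 and 6 members were called lower, beside 13.6% and 12.2% of all genes, so the counts of members moved with those of the whole table. In AM against WT cells 0 members were called higher without either WT replicate, where 0.0545% and 0.0409% of all genes were, 1 without AM replicate 1 (0.184% of all genes) and 0 without AM replicate 2 (0.0818%). At an unadjusted p-value under 0.05, 8, 7, 7 and 8 members were higher in these fits, beside 8.87%, 7.74%, 10.1% and 7.46% of all genes. Between 6WP and AM cells 6 members were called lower without AM replicate 1 or 2, beside 0.443% and 0.416% of all genes. Members kept their direction in every comparison with each library left out. Since members were listed with the groups already apart, leaving out 1 library could hardly reverse a direction, and this adds no support.

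Levels can be compared between genes only per length, for which CPM were divided by the length of the canonical transcript (GENCODE, GRCh38). In WT cells CALR led with 1123 ± 0.93 CPM per kilobase (SD, n = 2), followed by CANX with 330 ± 19.6 and PDIA4 with 330 ± 0.25, which did not differ beyond their spread. P4HB, PDIA3 and PDIA6 followed at 247 ± 0.60, 236 ± 3.79 and 228 ± 5.64 CPM per kilobase, close to each other. ERP44, PDIA5 and UGGT1 were at 27.1 ± 0.29, 20.1 ± 0.11 and 5.04 ± 0.09. In AM cells PDIA4 moved up to rank 2 with 650 ± 33.6 CPM per kilobase (SD, n = 2), above CANX at 437 ± 14.8 and P4HB at 429 ± 6.20, whose libraries overlapped. In 6WP cells PDIA4 was at rank 6 with 119 ± 4.86 CPM per kilobase (SD, n = 2), below CANX at 242 ± 4.74, P4HB at 195 ± 26.2, PDIA3 at 164 ± 17.4 and PDIA6 at 142 ± 3.41, of which P4HB and PDIA3 were within their spread of each other. CALR held rank 1 in all 3 groups, and ERP44, PDIA5 and UGGT1 held ranks 7, 8 and 9.

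Ratios of raw counts between members within a library do not depend on the scaling. The ratio of CALR to CANX was 1.26 and 1.38 for WT, 1.42 and 1.40 for AM, and 0.953 and 0.895 for 6WP libraries. The soluble lectin thus had more counts than the membrane-bound lectin in both controls and fewer in 6WP cells. Raw counts are not corrected for length, and per length CALR stayed above CANX in 6WP cells, at 579 and 242 CPM per kilobase. The ratio of PDIA4 to P4HB was 1.51 and 1.52 for WT, 1.67 and 1.76 for AM, and 0.648 and 0.739 for 6WP libraries. For PDIA6 to P4HB it was 0.878 and 0.850 for WT, 0.866 and 0.848 for AM, and 0.610 and 0.764 for 6WP libraries. These ratios of PDIs to P4HB were lower in both 6WP libraries than in all 4 control libraries. The ratio of PDIA3 to P4HB showed no such order, since the 6WP libraries lay on both sides of the controls with 1.07 and 1.50, against 1.46 and 1.43 in WT and 1.30 and 1.26 in AM libraries. PDIA4 and the chaperone gene HSPA5 kept closer to each other, at ratios of 0.590 and 0.595 for WT, 0.640 and 0.649 for AM, and 0.761 and 0.622 for 6WP libraries.

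**Figure D3:**
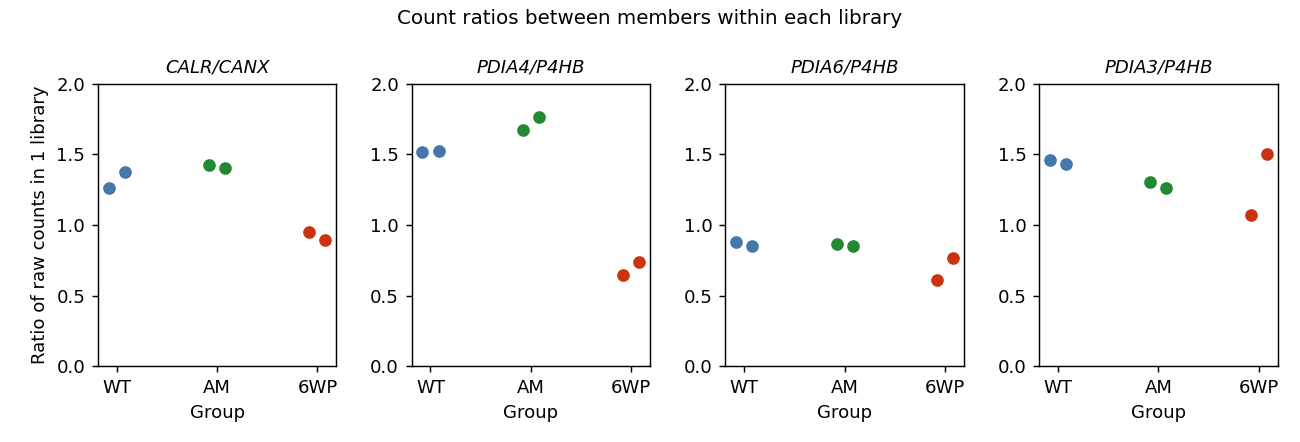
Ratios of raw counts between pairs of members in each library (points) of WT, AM and 6WP cells, with axes from 0. The 6WP points are below 1 for CALR to CANX and PDIA4 to P4HB, where all WT and AM points are above 1, whereas for PDIA3 to P4HB the 6WP points lie at 1.07 and 1.50 on either side of the rest. Counts are not corrected for transcript length, so a ratio of 1 does not mean equal levels.

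The rest of the pathway was followed through 63 genes in 6 lists drawn up by function, of which 59 were tested. These lists too were drawn up with earlier results of these data known, so their counts are a description. In 6WP against WT cells 5 were called lower and 0 higher, beside 1.37% and 1.63% of all genes. These 5 were all ER Hsp70 and Hsp90 chaperone genes. At an unadjusted p-value under 0.05, 19 were lower and 3 higher, beside 11% and 11.3% of all genes, and DESeq2 called 11 lower and 0 higher, beside 4.23% and 3.83%. In 6WP against AM cells 20 were called lower and 5 higher, beside 9.68% and 11.7% of all genes. In AM against WT cells 16 were called higher and 5 lower, beside 7.74% and 9.93%. The ER Hsp70 and Hsp90 list held 9 of these 20, 9 of these 16 and 0 of those called in the other direction. The calls depended on single libraries, as did those over all genes. In 6WP against WT cells 0 were called lower without either WT replicate, 3 without either AM replicate, 22 without 6WP replicate 1 and 18 without 6WP replicate 2, while over all genes 0, 37, 2000 and 1789 were called lower, against 201 with every library. Between 6WP and AM cells 7 were called lower without either AM replicate, where 65 and 61 of all genes were, and 33 without 6WP replicate 1, where 22.5% of all genes were.

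Among the other PDI family genes, 12 of 15 were tested, and PDILT, ERP27 and AGR3 had at most 5 counts in a library. For 6WP against WT cells, 0 of the 12 were called by edgeR, beside 1.37% of all genes lower and 1.63% higher. At an unadjusted p-value under 0.05, 1 was lower and 1 higher, beside 11% and 11.3% of all genes. DESeq2 called 1 lower, beside 4.23%. Relative to AM cells, 5 were called lower and 0 higher in 6WP cells, beside 9.68% and 11.7% of all genes. DNAJC10, an ER reductase also known as ERdj5, had 130 (WT), 289 (AM) and 155 (6WP) mean CPM, with log2 fold changes of 1.16 in AM against WT (adjusted p = 0.00258 from edgeR) and -0.90 in 6WP against AM cells (adjusted p = 0.00397). Its value in 6WP against WT cells did not pass (0.25, adjusted p = 0.252). TXNDC11, TXNDC15, TMX2 and TMX4, all membrane-anchored, were the other genes called lower, with log2 fold changes between -0.42 and -0.58. ERP29, a PDI without a catalytic site, was at 231 (WT), 340 (AM) and 301 (6WP) mean CPM. It was called higher in AM against WT cells (0.56, adjusted p = 0.0145 from edgeR), and its value of -0.18 in 6WP against AM cells did not pass (adjusted p = 0.271).

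The genes that supply oxidizing power to PDIs had values on both sides of 0 in each comparison. Relative to WT cells, 0 of 9 were called in 6WP cells by edgeR, beside 1.37% of all genes lower and 1.63% higher. At an unadjusted p-value under 0.05, 3 were lower and 1 higher, beside 11% and 11.3% of all genes. DESeq2 called 1 lower, beside 4.23%. In AM against WT cells edgeR called 3 of the 9 lower and 0 higher, beside 9.93% and 7.74% of all genes. ERO1A, listed under its older symbol ERO1L, encodes the main oxidase of PDIs and had a log2 fold change of -0.74 in 6WP against AM cells (adjusted p = 0.0117 from edgeR). GPX8, an ER peroxidase, went the other way. It was at 14.1 (WT), 4.49 (AM) and 14.7 (6WP) mean CPM, which gave 1.71 in 6WP against AM (adjusted p = 0.00235) and -1.65 in AM against WT cells (adjusted p = 0.00321). PRDX4, the ER peroxiredoxin, had -0.27 in 6WP against AM cells (adjusted p = 0.102).

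Of the 9 partners of the calnexin cycle, 8 were tested, and CALR3 had at most 6 counts. Relative to WT cells, 0 were called in 6WP cells by edgeR, beside 1.37% of all genes lower and 1.63% higher. At an unadjusted p-value under 0.05, 2 were lower and 0 higher, beside 11% and 11.3% of all genes. DESeq2 called 1 lower, beside 4.23%. PPIB, a prolyl isomerase of the ER, had 773 (WT), 1274 (AM) and 606 (6WP) mean CPM and a log2 fold change of -1.07 in 6WP against AM cells (adjusted p = 0.00310). The glucosidase II subunits trim the sugar that calnexin and calreticulin bind. GANAB, its catalytic subunit, had -0.31 in 6WP against AM cells (adjusted p = 0.0776), and PRKCSH, its regulatory subunit, was called higher at 0.53 (adjusted p = 0.0193). CLGN, a paralog of calnexin, was also higher in 6WP than in AM cells (0.95, adjusted p = 0.0204), opposite in sign to CANX. MLEC, a lectin for a less trimmed sugar, was at 1806 (WT), 1187 (AM) and 1519 (6WP) mean CPM. It was called lower in AM against WT cells (-0.61, adjusted p = 0.0416 from edgeR), and its value of 0.36 in 6WP against AM cells did not pass (adjusted p = 0.158).

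The lectins and mannosidases that take glycoproteins out of the cycle included 13 tested genes. In 6WP against WT cells 0 were called by edgeR, beside 1.37% of all genes lower and 1.63% higher. At an unadjusted p-value under 0.05, 2 were lower and 0 higher, beside 11% and 11.3% of all genes. DESeq2 called 1 lower, beside 4.23%. Relative to AM cells, EDEM1, which directs clients to degradation, was lower (-0.67, adjusted p = 0.0101), and so was MCFD2, a partner of the cargo lectin LMAN1 (-0.46, adjusted p = 0.0185). MAN1A1, a Golgi mannosidase, was at 45.4 (WT), 19.7 (AM) and 35.4 (6WP) mean CPM. Called lower in AM than in WT cells (-1.21, adjusted p = 0.00333 from edgeR), it was higher in 6WP than in AM cells (0.85, adjusted p = 0.00743). OS9 and EDEM3 did not pass, with values of -0.17 (adjusted p = 0.280) and -0.34 (adjusted p = 0.201).

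P4HB partners and the receptors that return PDIs to the ER formed a list of 7 tested genes. Between 6WP and WT cells 0 were called by edgeR, beside 1.37% of all genes lower and 1.63% higher. At an unadjusted p-value under 0.05, 3 were lower and 1 higher, beside 11% and 11.3% of all genes. DESeq2 called 0, beside 4.23% lower and 3.83% higher. The KDEL receptor genes KDELR2 (-0.68, adjusted p = 0.00627) and KDELR1 (-0.33, adjusted p = 0.0476) were lower in 6WP than in AM cells, and KDELR3 had -0.23 (adjusted p = 0.429). P4HA1, a catalytic subunit of prolyl hydroxylase, had -0.36 (adjusted p = 0.0607). MTTP, the lipid transfer partner of P4HB, was higher (1.34, adjusted p = 0.0481) from means of 0.341 CPM in AM and 0.858 CPM in 6WP cells.

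The list of ER Hsp70 and Hsp90 chaperone genes had 10 tested genes, with medians further from 0 than those of the members. These were 0.89 in AM against WT, -0.83 in 6WP against WT and -1.90 in 6WP against AM cells. Called genes numbered 9 higher, 5 lower and 9 lower in these comparisons, beside 7.74%, 1.37% and 9.68% of all genes. The difference between this list and the members was not tested. HSPA5, the ER Hsp70, had log2 fold changes of 0.86, -1.69 and -2.54, beside 0.98, -1.47 and -2.45 for PDIA4. SIL1, its exchange factor, was at 31.1 (WT), 37.1 (AM) and 31.9 (6WP) mean CPM and did not pass in any comparison. The ERSE was found in the windows of CRELD2, HSP90B1 and HSPA5.

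**Figure D4:**
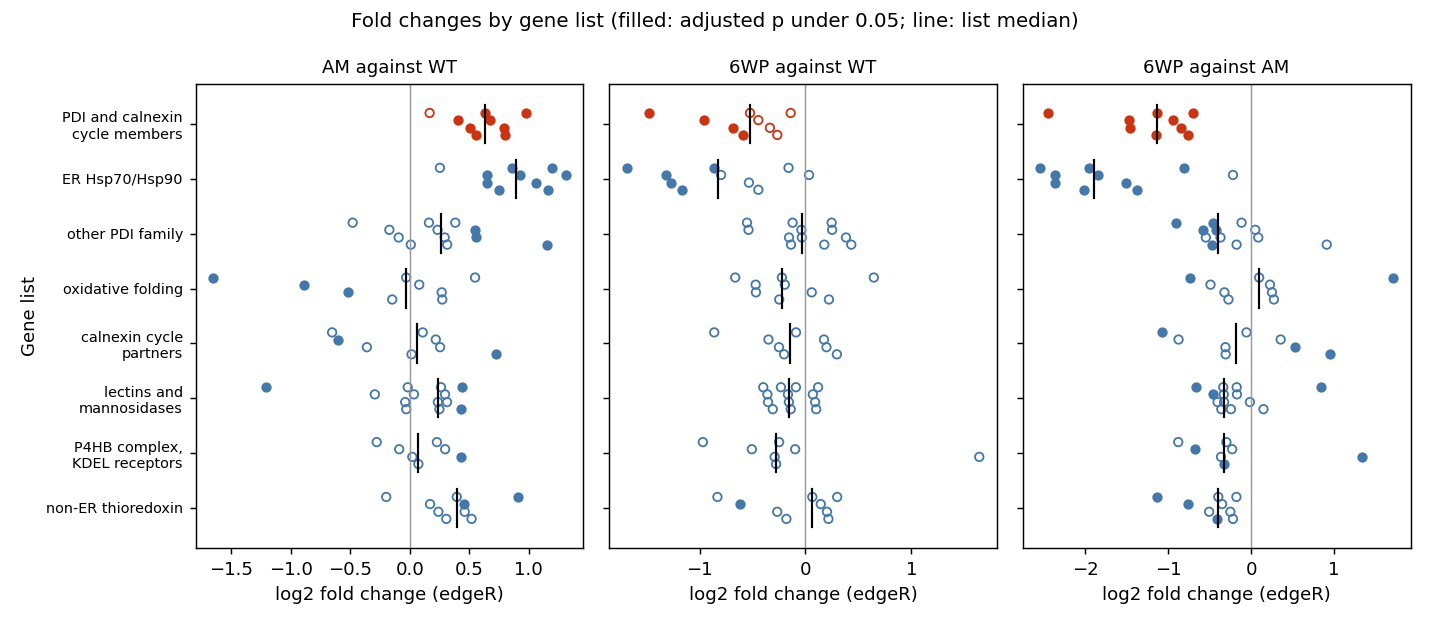
Log2 fold changes from edgeR of the tested genes of each list in AM against WT, 6WP against WT and 6WP against AM cells, with separate x axes for the 3 panels. Filled points had an adjusted p-value under 0.05 and black lines are list medians. The member medians are 0.63, -0.52 and -1.14, those of the ER Hsp70 and Hsp90 list 0.89, -0.83 and -1.90, and the other medians lie nearer 0, with points on both sides of 0 in each panel except for the non-ER thioredoxin list, where all 9 lie below 0 in 6WP against AM cells.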

How the data were processed

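RNA was sequenced as 100 bp single end reads from a stranded TruSeq library kit. Reads were aligned by the authors to hg38 with STAR 2.5.3a and processed with StringTie 1.3.3, and the submitters' processing notes also name featureCounts 1.5.3, Subread, edgeR 3.22.3 and R 3.5.0 without a role. The deposited file holds raw, whole-number counts for each gene symbol, not normalized. The gene annotation, the strand setting and the treatment of reads on more than 1 gene are not given in the sources used here. All 6 columns were used and 0 were left out.

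Counts were analysed in R 4.3.3 with edgeR 4.0.16. filterByExpr over the 3 groups kept 14672 genes of 29804. After TMM scaling, all libraries entered a single quasi-likelihood fit with the group as its only term, and the 3 pairs of groups were compared, two-sided, with Benjamini-Hochberg adjustment. The standard error was taken as the size of the log2 fold change over the square root of its F statistic. An exact permutation test of 2 against 2 libraries reaches p = 0.333 at best, so calls rest on the model. The pipeline was tested on simulated data.

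The members and gene lists were chosen with earlier results of these data known. Named are all members, genes of each list called in a comparison of 6WP cells, the 2 uncalled genes of a list with the highest mean CPM, and, of the 10 genes most like the members, those reported here. Some markers and genes that these rules name are not reported here. Alternatives were other size factors, library size only, other filters, the Wald test of DESeq2 1.42.0, the likelihood ratio test, fits to 2 groups, a replicate block and leaving out each library. Gene positions, transcript lengths and overlaps come from GENCODE on GRCh38, of the same assembly as hg38. The table itself gives no coordinates.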

Additional observations from a re-analysis of the deposited data

How the results depend on the processing

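Each member kept its direction under all 14 alternatives in all 3 comparisons. This adds no support, since the members were listed with these differences known. Leaving out libraries in turn, the count of members called lower in 6WP against WT cells ranged from 0 to 8 and that of members called higher in AM against WT cells from 0 to 8. For the 63 further pathway genes these ranges were 0 to 22 lower and 0 to 7 higher in 6WP against WT, 7 to 33 lower and 0 to 9 higher in 6WP against AM, and 0 to 7 lower and 0 to 32 higher in AM against WT cells. The median of the members ranged from -0.58 to -0.48, from -1.14 to -1.03 and from 0.60 to 0.65 in the same order of comparisons. Over all genes the same fits called 0 to 3801, 115 to 6799 and 46 to 6714 genes. A group left with 1 library was assumed to vary like the others. With only the 2 groups compared in the fit, 2 members and 3 pathway genes were called lower in 6WP against WT cells. In such fits 2 pathway genes were called higher in 6WP against AM and 30 higher in AM against WT cells. Over all genes these 2 comparisons then called 1299 and 6635 genes, against 3131 and 2593 in the main fit. The member median was -1.16 in 6WP against AM cells. Pathway genes called lower in 6WP against WT cells numbered 9 without a filter beyond 1 count, 11 with DESeq2 and 10 with the likelihood ratio test, which also called 2 higher. In this comparison these settings called 894, 1114 and 1492 of all genes in the same order, against 440 in the main fit. The fit to only the 2 groups called 98. With library size only the medians were -0.55, -1.10 and 0.57, and DESeq2's size factors and its Wald test both gave -1.16 in 6WP against AM cells. The cause of these differences was not tested. The replicate numbers are shared by name only. With the replicate block, 4 members were called lower in 6WP against WT, 9 lower in 6WP against AM and 7 higher in AM against WT cells. Of all 14672 genes, this fit called 174 and 1381 lower in the comparisons of 6WP cells. In AM against WT cells it called 2485 in either direction. Same-numbered libraries deviated with correlations across genes of 0.04, 0.09 and -0.02. TXNDC5 stayed at or near the floor in every library, and the part of depth in this was not tested.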

Other observations

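Outside the pathway, the genes whose log2 CPM followed the mean of the 9 tested members most closely over the 6 libraries included FANCC, XPO6, SMC1A, NSDHL, ACLY, SRRT, ATP1B3, TTI1 and SFPQ, among 6230 genes with a mean of at least 5 log2 CPM. Pearson's r lay between 0.995 and 0.999, as a description over 6 libraries that form 3 pairs of replicates. NSDHL encodes an enzyme of sterol synthesis and ACLY makes the acetyl-CoA used by it. NSDHL had 37.0 and 38.5 CPM (WT), 60.0 and 59.6 CPM (AM) and 24.3 and 24.7 CPM (6WP) in its replicate libraries. SMC1A, a cohesin subunit, was at 254 and 252, 342 and 348, and 194 and 185 CPM in the same order. XPO6, an exportin, followed the same order in a narrower range, from 133 CPM in a 6WP library to 165 CPM in the AM libraries.

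Proteins with a thioredoxin fold outside the ER were kept as a further list of 9 tested genes. Relative to WT cells, TXNRD1, the cytosolic thioredoxin reductase, was called lower in 6WP cells by edgeR (-0.61, adjusted p = 0.0329). Relative to AM cells, TXNRD1 (-0.42, adjusted p = 0.0342), GLRX (-1.14, adjusted p = 0.0287) and GLRX2 (-0.76, adjusted p = 0.00782) were lower, with GLRX at means of 4.91 CPM in AM and 2.24 CPM in 6WP cells. TXN, the cytosolic thioredoxin, did not pass (-0.35, adjusted p = 0.291). Over all genes edgeR called 1.37% lower in 6WP than in WT cells and 9.68% lower than in AM cells.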
